A study of Homo sapiens with 16 samples.

Results

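The cholesterol synthesis pathway and the genes of its sterol-sensing control were followed in 2 human breast cancer cell lines cultured at a low and a high glucose concentration. The set held 27 listed genes, all of which were found among the 18332 genes of the deposited table, and was divided by role: 7 enzymes from acetyl-CoA to the isoprenoid diphosphates, 3 enzymes of squalene and lanosterol, 8 enzymes from lanosterol to cholesterol, 5 genes of SREBP regulation and 4 genes of sterol transport and efflux. MDA-MB-231 and MDA-MB-468 are established lines, both labelled estrogen receptor (ER) negative, and each was kept for 48 hours in 5 mM glucose, the control, or in 25 mM glucose, the model of hyperglycemia. There were 4 groups of 4 replicates, 16 samples in all, with 14094597 to 24425916 reads per sample in the table, recovered from the scaled values. The labels name no engineered change and no drug in any group. The methods of the study describe medium without serum in both glucose conditions for its culture experiments in general, but their RNA-seq passage does not mention serum. The labels name no mannitol control, and a response to glucose and a response to the osmolarity of the added glucose therefore cannot be told apart. ESR1, which encodes the estrogen receptor, had 0 to 2.92 normalized reads in MDA-MB-231 samples and 38.2 to 69.7 in MDA-MB-468 samples. The mesenchymal marker VIM had 89664 to 99379 normalized reads in MDA-MB-231, beside 15.8 to 35.4 in MDA-MB-468, and the epithelial marker EPCAM had 198 to 244 and 5279 to 6302. Values are read counts that the authors had scaled for library size, called normalized reads here, and they are listed in the order of replicates 1 to 4.

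Cells make cholesterol from acetyl-CoA through mevalonate, farnesyl diphosphate, squalene and lanosterol, and the transcription factor SREBP2, encoded by SREBF2, switches on most enzymes of this route. When membrane sterols are low, the escort protein SCAP carries the SREBP precursor from the endoplasmic reticulum to the Golgi apparatus, where it is cut and freed to enter the nucleus. When sterols are plentiful, INSIG1 and INSIG2 hold SCAP back, and oxysterols act through LXR receptors to raise the efflux transporters ABCA1 and ABCG1. In breast cancer cells the same route also supplies isoprenoids for membrane anchoring of small GTPases.

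Promoters of SREBP targets are known to combine a sterol element with sites for the general factors NF-Y and Sp1. The promoters of 5 genes are printed as examples, and these are not the 5 genes with the largest responses. The log2 response to glucose in MDA-MB-468 minus that in MDA-MB-231 was 0.46 for TM7SF2 and 0.42 for CYP51A1, not printed. It was 0.38 for MVK and 0.28 for INSIG1. The 5 printed promoters are those of SREBF2, the gene for the factor itself, MVK, INSIG1, HMGCS1 and FDPS. Each is the stretch of 250 bases before the RefSeq start site in build GRCh38.p14, written 5′ to 3′ on the strand of the gene. Capitals mark the sterol regulatory element core TCACNCCA, the SREBP E-box TCACNTGA, the NF-Y box CCAAT and the Sp1 box GGGCGG, searched on both strands, so that CCAAT may stand as ATTGG and GGGCGG as CCGCCC. Neighbouring or overlapping matches run together as 1 block of capitals. The windows lay at chr22:41832855-41833104 (plus strand), chr12:109573544-109573793 (plus), chr7:155297628-155297877 (plus), chr5:43313413-43313662 (minus) and chr1:155308616-155308865 (plus).
SREBF2: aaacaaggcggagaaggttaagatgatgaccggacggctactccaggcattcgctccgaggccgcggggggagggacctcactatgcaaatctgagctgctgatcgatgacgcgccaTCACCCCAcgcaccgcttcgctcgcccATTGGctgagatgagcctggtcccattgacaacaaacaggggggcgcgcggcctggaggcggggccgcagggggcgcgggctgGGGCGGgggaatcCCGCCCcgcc
MVK: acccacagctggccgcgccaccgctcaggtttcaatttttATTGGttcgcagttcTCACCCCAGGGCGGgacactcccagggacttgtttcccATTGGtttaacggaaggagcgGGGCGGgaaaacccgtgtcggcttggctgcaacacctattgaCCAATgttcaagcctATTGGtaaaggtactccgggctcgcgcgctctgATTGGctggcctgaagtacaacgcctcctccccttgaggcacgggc
INSIG1: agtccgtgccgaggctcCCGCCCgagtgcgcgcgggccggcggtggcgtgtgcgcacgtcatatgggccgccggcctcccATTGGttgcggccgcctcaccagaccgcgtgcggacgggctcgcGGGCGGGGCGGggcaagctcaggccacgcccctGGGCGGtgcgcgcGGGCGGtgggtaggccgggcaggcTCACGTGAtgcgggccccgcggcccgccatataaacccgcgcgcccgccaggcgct
HMGCS1: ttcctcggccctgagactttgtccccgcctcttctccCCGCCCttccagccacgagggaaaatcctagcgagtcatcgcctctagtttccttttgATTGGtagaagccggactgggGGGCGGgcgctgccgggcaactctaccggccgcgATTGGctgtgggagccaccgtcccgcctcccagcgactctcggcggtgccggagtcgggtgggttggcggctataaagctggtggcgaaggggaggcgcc
FDPS: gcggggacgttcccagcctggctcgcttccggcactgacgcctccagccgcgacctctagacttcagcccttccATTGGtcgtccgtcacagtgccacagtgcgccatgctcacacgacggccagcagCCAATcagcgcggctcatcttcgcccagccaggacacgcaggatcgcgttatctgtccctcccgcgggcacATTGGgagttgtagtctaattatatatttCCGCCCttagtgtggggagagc

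The sterol regulatory element core stood 133 bases before the start site of SREBF2 and 195 bases before that of MVK, and the E-box stood 56 bases before that of INSIG1. HMGCS1 and FDPS had NF-Y boxes in these windows, 2 and 3 of them, and neither of the SREBP motifs as spelled here. RefSeq windows were matched for 23 of the 27 genes, 29 windows in all because some genes have several start sites. The sterol element core was in 3 of the 29 (10.3%; MVK, MSMO1 and SREBF2), beside 3.2% of 35116 windows of all genes. NF-Y boxes were found in 18 of the 29 windows (62.1%), beside 32.0% of all windows, and Sp1 boxes in 27 (93.1%), beside 42.6% of all windows and 61.2% of the 17316 windows of genes tested here. The E-box was in 2 windows (6.9%; EBP and INSIG1), beside 3.2%. These shares are descriptions of letters in short windows and were not tested, and a window without a match says nothing about binding of the factor.

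Most of these transcripts were abundant. Ranked by normalized reads per kilobase of exon among the tested genes with a known length, their median percentile was 92.0 in MDA-MB-231 low glucose and 95.8 in MDA-MB-468 low glucose, and 15 and 17 of the 27 lay above the 90th percentile. FDPS, which makes farnesyl diphosphate, had the highest level per kilobase in all 4 groups, with means from 5808 in MDA-MB-231 high glucose to 9719.9 in MDA-MB-468 low glucose. In MDA-MB-468 low glucose DHCR7, FDFT1 and MVD came next with 6203, 5973 and 4370.4 normalized reads per kilobase. The lowest levels per kilobase belonged to the efflux transporters: ABCA1 had 48.8 in MDA-MB-231 low glucose and 12.6 in MDA-MB-468 low glucose, and ABCG1 had 3.17 and 39.7. These are averages over whole cultures, in which a change in the share of cells expressing a gene and a change in RNA per cell cannot be told apart.

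**Figure D1:**
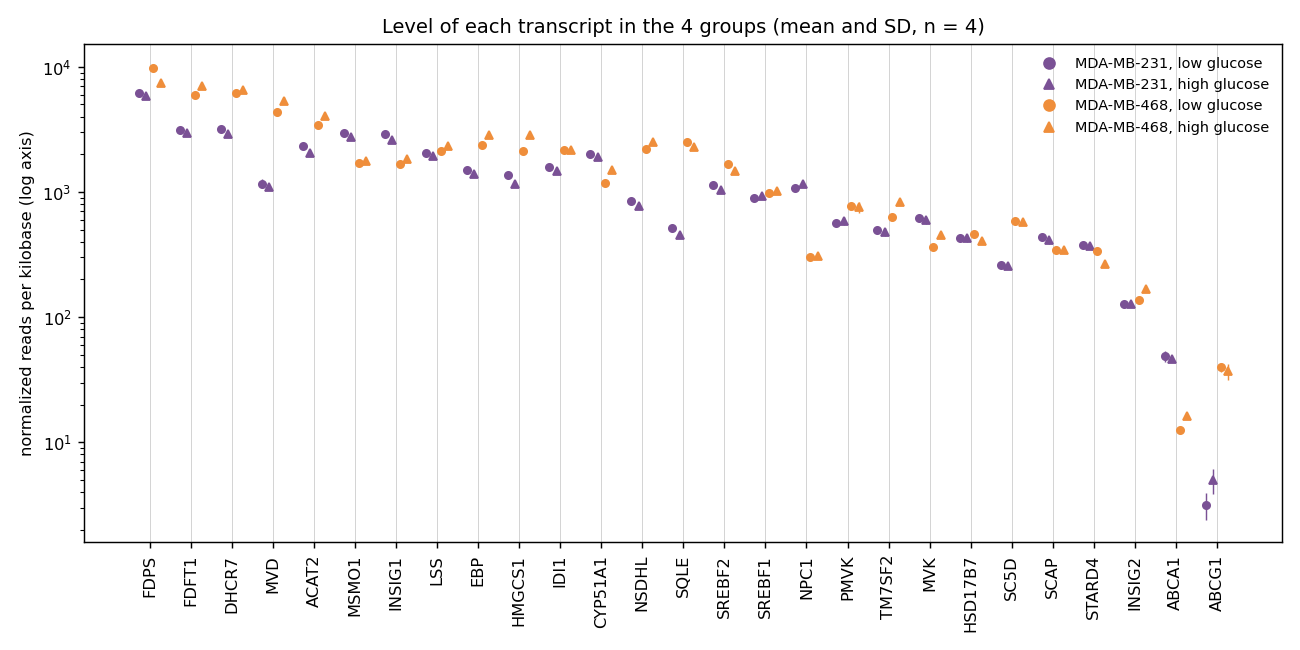
Levels of the 27 transcripts in normalized reads per kilobase (log axis), ordered by their mean over the 4 groups. Circles are low glucose and triangles high glucose, purple is MDA-MB-231 and orange MDA-MB-468, and bars are the SD of 4 replicates. FDPS stands highest in every group and ABCA1 and ABCG1 lowest.

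Most called changes of the pathway in high glucose were falls in MDA-MB-231 and rises in MDA-MB-468. In MDA-MB-231, 9 of the 27 transcripts were lower in high glucose and 1 was higher (limma adjusted p under 0.05), while 17 did not pass. Leaving out 1 replicate in turn gave 5 to 12 lower, with 5 without low-glucose replicate 3 or without high-glucose replicate 3, 6 without low-glucose replicate 2 or high-glucose replicate 4, and 12 without low-glucose replicate 4, and none was higher without high-glucose replicate 1 or 2. Among all 14884 genes tested in that line, 9.37% were called lower and 5.71% higher, beside 33.3% and 3.7% of these transcripts. In MDA-MB-468, 14 of the 27 were higher and 5 lower, with 8 not called, and among all 15757 genes tested 24.9% were called higher and 22.7% lower, beside 51.9% and 18.5% of these transcripts. The share called lower in MDA-MB-468 was near that of all genes. The median log2 fold change of the 27 was -0.08 in the former line and 0.08 in the latter, with a median of 0.00 over all genes in both lines. Changes were small, with no called transcript beyond a log2 fold change of 0.5 in size in either line. The 4 low-glucose and 4 high-glucose values did not overlap for 10 of the 27 in MDA-MB-231 (18.7% of all tested genes) and for 18 in MDA-MB-468 (42.5%).

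**Figure D2:**
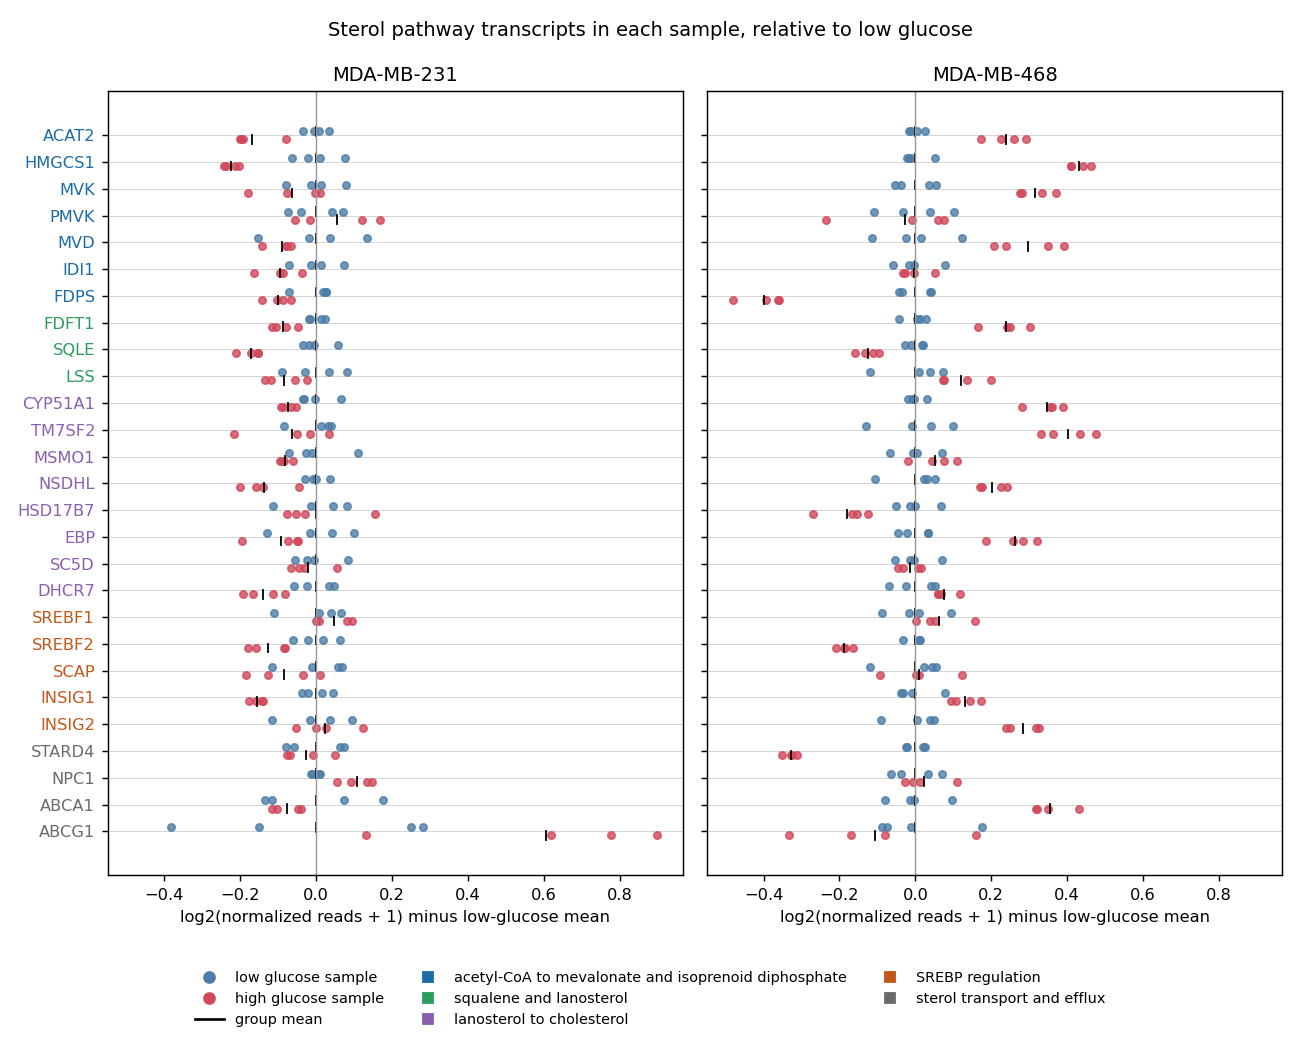
Each sample's log2(normalized reads + 1) relative to the low-glucose mean of its line (x axis), for 27 transcripts coloured by role (y axis). Blue points are low glucose, red points high glucose and black ticks group means of 4 replicates. In MDA-MB-231 most red groups sit left of zero, and in MDA-MB-468 most sit right of it. FDPS, SQLE, HSD17B7, SREBF2 and STARD4, the 5 called lower in MDA-MB-468, are among those to the left there.

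Among the 7 enzymes leading from acetyl-CoA to the isoprenoid diphosphates, 3 fell in MDA-MB-231 (ACAT2, HMGCS1 and FDPS), and in MDA-MB-468 4 rose (ACAT2, HMGCS1, MVK and MVD) and 1 fell (FDPS). HMGCS1 (chr5:43287572-43313614 in GRCh37, minus strand), the synthase that commits acetyl-CoA units to HMG-CoA, showed the largest called difference between the lines. HMGCS1 counts in MDA-MB-468 were 11241, 11742, 11169.8 and 11202 in low glucose and 15398, 15052, 15623 and 15072 in high glucose. HMGCS1 counts in MDA-MB-231 were 6975, 7340.0, 7187 and 7686 in low glucose and 6158, 6291, 6332 and 6184 in high glucose. Pairs of values are given with MDA-MB-468 first unless a line is named. All high-glucose samples were above all low-glucose samples in MDA-MB-468 and below them in MDA-MB-231. The log2 fold change was 0.43 (± 0.03 SE, adjusted p 2.05e-09 by limma) in MDA-MB-468 and -0.22 (± 0.03 SE, adjusted p 8e-05 by limma) in MDA-MB-231, and the difference between them was 0.66 (± 0.04 SE, adjusted p 3.29e-09 by limma). A gene without a symbol lies on the opposite strand over HMGCS1, at a mean of 68.3 normalized reads over all samples. Its log2 fold change was 0.48 (limma adjusted p 0.00814) in MDA-MB-468 and -0.34 (limma adjusted p 0.357) in MDA-MB-231. ACAT2, the cytosolic thiolase that joins acetyl-CoA units (chr6:160183077-160200144), moved the same way as HMGCS1 at smaller size. ACAT2 counts in MDA-MB-468 were 5209, 5153, 5291 and 5135 in low glucose and 6227, 5857, 6079 and 6364 in high glucose. ACAT2 counts in MDA-MB-231 were 3437, 3609, 3539 and 3508 in low glucose and 3065, 3333, 3073 and 3082 in high glucose. The groups were again apart in both lines, in opposite order, with log2 fold changes of 0.24 (± 0.03 SE, adjusted p 6.57e-06 by limma) and -0.17 (± 0.03 SE, adjusted p 0.00271 by limma). ACAT2 overlaps TCP1 on the opposite strand, which had a log2 fold change of -0.34 (limma adjusted p 4.08e-08) in MDA-MB-468, and as strand use in the counting is not given in the sources used here the ACAT2 values are uncertain to that extent.

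MVK and MVD, the first kinase acting on mevalonate and the decarboxylase that yields isopentenyl diphosphate, rose in MDA-MB-468 alone among the calls. MVK counts in MDA-MB-468 were 1074, 1061, 1007 and 996 in low glucose and 1256, 1251, 1302 and 1338 in high glucose. MVK counts in MDA-MB-231 were 1743, 1772, 1857 and 1662 in low glucose and 1666, 1752, 1551 and 1771 in high glucose. The MDA-MB-468 groups were apart, with a log2 fold change of 0.32 (± 0.04 SE, adjusted p 8.15e-06 by limma), and the MDA-MB-231 groups overlapped, with -0.06 (± 0.05 SE, adjusted p 0.416 by limma). MMAB overlaps MVK on the opposite strand at a mean of 1071 normalized reads over all samples. Its log2 fold change was 0.05 (limma adjusted p 0.378) in MDA-MB-468. With strand use in the counting not given, the MVK values are uncertain to that extent. MVD counts in MDA-MB-468 were 8554, 7251, 7932 and 7712 in low glucose and 9268, 9059, 9999 and 10294 in high glucose. MVD counts in MDA-MB-231 were 2144, 2062, 2292 and 1877 in low glucose and 1996, 1975, 1892 and 1982 in high glucose. This gave MVD a log2 fold change of 0.30 (± 0.05 SE, adjusted p 6.36e-05 by limma) in MDA-MB-468 and -0.09 (± 0.05 SE, adjusted p 0.242 by limma) in MDA-MB-231, where its groups overlapped. For both genes the response differed between lines, by 0.38 (± 0.06 SE, adjusted p 0.000195 by limma) for MVK and 0.39 (± 0.08 SE, adjusted p 0.0015 by limma) for MVD. PMVK, the next kinase, and IDI1, which isomerises isopentenyl diphosphate, were not called in either line. PMVK had log2 fold changes of 0.05 and -0.03 in MDA-MB-231 and the other line, and IDI1 -0.10 and -0.003.

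FDPS (chr1:155278539-155290457, plus strand) fell in MDA-MB-468, where 4 of the other 6 enzymes of this stretch rose. FDPS counts in MDA-MB-468 were 14149.8, 13428, 14162 and 13353 in low glucose and 10472, 9871, 10734 and 10711 in high glucose. FDPS counts in MDA-MB-231 were 8929.5, 8974, 8984 and 8401 in low glucose and 8419.7, 8307, 7987 and 8206 in high glucose. Every MDA-MB-468 high-glucose sample was below every low-glucose sample, with a log2 fold change of -0.40 (± 0.03 SE, adjusted p 4.33e-08 by limma), the largest fall among the 27 in that line. In MDA-MB-231 the FDPS groups overlapped through low-glucose replicate 4, the log2 fold change was -0.10 (± 0.03 SE, adjusted p 0.0319 by limma), and the call was lost without low-glucose replicate 1, 2 or 3 or high-glucose replicate 2, 3 or 4 (adjusted p 0.0589 to 0.113, limma). That MDA-MB-231 call was also lost under quantile rescaling and with the replicate block. The FDPS response in MDA-MB-468 minus that in MDA-MB-231 was -0.30 (± 0.04 SE, adjusted p 7.05e-05 by limma). RUSC1-AS1 lies on the opposite strand over FDPS and had a log2 fold change of -0.50 (limma adjusted p 0.00428) in MDA-MB-468, at a mean of 103 normalized reads over all samples.

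The 3 enzymes of squalene and lanosterol did not move together. FDFT1, squalene synthase, which takes farnesyl diphosphate into the sterol branch, fell slightly in MDA-MB-231 and rose in MDA-MB-468. FDFT1 counts in MDA-MB-468 were 12250.3, 12183, 12394 and 11796 in low glucose and 14358, 13617, 14990.0 and 14457 in high glucose. FDFT1 counts in MDA-MB-231 were 6500.1, 6449.5, 6309 and 6319.8 in low glucose and 6054, 6187, 5895 and 5943 in high glucose. The groups were apart in both lines, with log2 fold changes of 0.24 (± 0.03 SE, adjusted p 7.13e-06 by limma) and -0.09 (± 0.03 SE, adjusted p 0.0437 by limma) and a difference of 0.33 (± 0.04 SE, adjusted p 5.66e-06 by limma). The FDFT1 call in MDA-MB-231 was lost without low-glucose replicate 1, 2 or 3 or high-glucose replicate 1, 3 or 4 (adjusted p 0.0562 to 0.136, limma). SQLE, squalene epoxidase, a rate-controlling step, was lower in high glucose in both lines. SQLE counts in MDA-MB-468 were 7522, 7537, 7296 and 7377 in low glucose and 6954, 6662, 6879.8 and 6777 in high glucose. SQLE counts in MDA-MB-231 were 1511, 1497, 1479.6 and 1579 in low glucose and 1363, 1311, 1363 and 1346 in high glucose. No SQLE values overlapped between the glucose groups of either line. Its log2 fold changes were -0.12 (± 0.03 SE, adjusted p 0.00103 by limma) and -0.17 (± 0.04 SE, adjusted p 0.00378 by limma), and the difference between lines was 0.05 (± 0.03 SE, adjusted p 0.332 by limma), 95% interval -0.03 to 0.12. LSS, which closes epoxysqualene into lanosterol, was called in MDA-MB-468. LSS counts in MDA-MB-468 were 10930.5, 9564, 10672 and 10459.6 in low glucose and 10928, 10959, 11413 and 11943 in high glucose. LSS counts in MDA-MB-231 were 10289, 9854, 10639.7 and 9441 in low glucose and 9672, 9144, 9255 and 9875 in high glucose. LSS groups overlapped in both lines, with log2 fold changes of 0.12 (± 0.04 SE, adjusted p 0.0179 by limma) and -0.08 (± 0.04 SE, adjusted p 0.146 by limma). The MDA-MB-468 call was lost without low-glucose replicate 2 or high-glucose replicate 4 (adjusted p 0.057 to 0.065, limma).

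Of the 8 enzymes that carry lanosterol to cholesterol, 5 rose in MDA-MB-468 (CYP51A1, TM7SF2, NSDHL, EBP and DHCR7) and 1 fell (HSD17B7), and in MDA-MB-231 2 fell (NSDHL and DHCR7) and none rose. CYP51A1, the lanosterol demethylase, had counts in MDA-MB-468 of 3695, 3801, 3715 and 3675 in low glucose and 4874, 4779, 4761 and 4522 in high glucose. CYP51A1 counts in MDA-MB-231 were 6200.0, 6212, 6338 and 6644 in low glucose and 5976, 6059.6, 6116 and 5948 in high glucose. Both lines had separate groups, in opposite order, but only the rise in MDA-MB-468 was called, with log2 fold changes of 0.35 (± 0.03 SE, adjusted p 1.03e-07 by limma) and -0.07 (± 0.03 SE, adjusted p 0.105 by limma). TM7SF2, a sterol reductase, had counts in MDA-MB-468 of 1059.7, 984, 1018 and 904 in low glucose and 1245, 1273, 1377 and 1338 in high glucose. TM7SF2 counts in MDA-MB-231 were 806, 810.2, 796 and 743 in low glucose and 807, 678, 762 and 779 in high glucose. Its groups were apart in MDA-MB-468 and overlapped in MDA-MB-231. The TM7SF2 log2 fold changes were 0.40 (± 0.05 SE, adjusted p 5.41e-06 by limma) and -0.06 (± 0.05 SE, adjusted p 0.51 by limma). VPS51 overlaps TM7SF2 on the same strand and had a log2 fold change of 0.66 (limma adjusted p 1.52e-08) in MDA-MB-468, larger than that of TM7SF2, and how reads were divided between the pair is uncertain.

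EBP, the sterol isomerase, and NSDHL, which removes methyl groups at the sterol ring with MSMO1 and HSD17B7, also rose in MDA-MB-468. EBP counts in MDA-MB-468 were 2742, 2636, 2596 and 2739.5 in low glucose and 3199, 3049, 3343 and 3257 in high glucose. EBP counts in MDA-MB-231 were 1659, 1798, 1727 and 1533 in low glucose and 1593, 1621, 1465 and 1619.8 in high glucose. EBP groups were apart in MDA-MB-468 and overlapped in MDA-MB-231, with log2 fold changes of 0.26 (± 0.03 SE, adjusted p 1.09e-05 by limma) and -0.09 (± 0.05 SE, adjusted p 0.239 by limma). NSDHL counts in MDA-MB-468 were 4115, 4089, 4173 and 3738 in low glucose and 4545, 4533, 4756 and 4703 in high glucose. NSDHL counts in MDA-MB-231 were 1529.8, 1561, 1601 and 1550.4 in low glucose and 1417, 1511, 1357 and 1397 in high glucose. NSDHL groups were apart in both lines and in opposite order, with log2 fold changes of 0.20 (± 0.04 SE, adjusted p 0.000179 by limma) and -0.14 (± 0.04 SE, adjusted p 0.0268 by limma). The NSDHL call in MDA-MB-231 was lost without low-glucose replicate 2 or 3 or high-glucose replicate 1, 3 or 4 (adjusted p 0.058 to 0.0958, limma).

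HSD17B7, the ketoreductase of the same demethylation, was the exception among these enzymes in MDA-MB-468. HSD17B7 counts in MDA-MB-468 were 741, 682, 707 and 701 in low glucose and 636, 587, 649 and 629.7 in high glucose. HSD17B7 counts in MDA-MB-231 were 649.5, 677, 607 and 694 in low glucose and 632, 731, 643 and 622 in high glucose. Only in MDA-MB-468 were the HSD17B7 groups apart, with a log2 fold change of -0.18 (± 0.05 SE, adjusted p 0.0055 by limma), beside -0.0007 (± 0.06 SE, adjusted p 0.996 by limma) in MDA-MB-231, and the difference between lines was not called at -0.18 (± 0.08 SE, adjusted p 0.091 by limma). A pseudogene copy, HSD17B7P2, averaged 23.1 normalized reads over all samples, beside 662 for HSD17B7, and reads of the copies could be split between them. DHCR7, the reductase of the last step (chr11:71139239-71163914), had counts in MDA-MB-468 of 16759.5, 15516, 16889.6 and 16016 in low glucose and 16962, 16976, 17059 and 17657 in high glucose. DHCR7 counts in MDA-MB-231 were 8545, 8211, 8630.5 and 8010.1 in low glucose and 7884, 7439.7, 7301 and 7716 in high glucose. The DHCR7 groups were apart in both lines, with log2 fold changes of 0.08 (± 0.03 SE, adjusted p 0.0486 by limma) and -0.14 (± 0.03 SE, adjusted p 0.00775 by limma). Its rise in MDA-MB-468 was the least stable of the calls there: it was lost without low-glucose replicate 2 or 4 or high-glucose replicate 1, 3 or 4 (adjusted p 0.069 to 0.137, limma), and quantile rescaling turned it to -0.03 (limma adjusted p 0.241). MSMO1, the methylsterol oxidase, and SC5D, the desaturase, were called in neither line, with log2 fold changes of -0.08 and 0.05 for MSMO1 and -0.02 and -0.01 for SC5D, MDA-MB-231 first.

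In the control genes, SREBF2 was called lower in both lines. SREBF2 (chr22:42229109-42303310, plus strand) holds a match to the sterol element core in the promoter printed above. SREBF2 counts in MDA-MB-468 were 8791, 8525, 8769.9 and 8775 in low glucose and 7663, 7648, 7536 and 7782 in high glucose. SREBF2 counts in MDA-MB-231 were 6042, 5869, 6230.1 and 5713 in low glucose and 5630.0, 5260.2, 5343 and 5621 in high glucose. High-glucose samples were below low-glucose samples in both lines without overlap, with log2 fold changes of -0.19 (± 0.03 SE, adjusted p 1.59e-05 by limma) and -0.13 (± 0.03 SE, adjusted p 0.0177 by limma). The SREBF2 response in MDA-MB-468 minus that in MDA-MB-231 was -0.06 (± 0.04 SE, adjusted p 0.281 by limma), 95% interval -0.14 to 0.02. The MDA-MB-231 call was lost without low-glucose replicate 1 or 3 or high-glucose replicate 2 or 3 (adjusted p 0.0538 to 0.0679, limma). It was also lost under quantile rescaling and under the transcript length correction, with or without the replicate block. The SREBF2 difference between lines was called in 1 of 28 alternatives. SREBF1, which encodes SREBP1, and SCAP, the escort, were not called: SREBF1 had 0.05 and 0.06, and SCAP -0.08 and 0.01, as log2 fold changes, MDA-MB-231 first.

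INSIG1 and INSIG2, the retention proteins, rose in MDA-MB-468, and INSIG1, itself a well-known SREBP target, fell in MDA-MB-231. INSIG1 counts in MDA-MB-468 were 4822, 5117, 4725 and 4735 in low glucose and 5223, 5174, 5359.9 and 5465 in high glucose. INSIG1 counts in MDA-MB-231 were 8557, 8336, 8248 and 8726 in low glucose and 7684, 7669, 7581 and 7488 in high glucose. Its groups were apart in both lines and in opposite order, with log2 fold changes of 0.13 (± 0.03 SE, adjusted p 0.00314 by limma) and -0.15 (± 0.03 SE, adjusted p 0.0009 by limma) and a difference of 0.28 (± 0.04 SE, adjusted p 2.96e-05 by limma). INSIG2 counts in MDA-MB-468 were 459, 502, 506 and 490.4 in low glucose and 581, 609.6, 613 and 577 in high glucose. INSIG2 counts in MDA-MB-231 were 461, 444, 415 and 480.1 in low glucose and 449.5, 458, 489 and 433 in high glucose. The INSIG2 groups were apart in MDA-MB-468, with a log2 fold change of 0.28 (± 0.05 SE, adjusted p 0.000212 by limma), and overlapped in MDA-MB-231, with 0.02 (± 0.06 SE, adjusted p 0.849 by limma).

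The 4 transport genes showed a mixture. STARD4, a cytosolic sterol carrier, fell in MDA-MB-468. STARD4 counts in MDA-MB-468 were 1529, 1580.4, 1526 and 1573 in low glucose and 1251, 1217, 1239.5 and 1237 in high glucose. STARD4 counts in MDA-MB-231 were 1646, 1831, 1669.5 and 1818 in low glucose and 1648, 1799.7, 1730.4 and 1658 in high glucose. The STARD4 groups were far apart in MDA-MB-468, with a log2 fold change of -0.33 (± 0.03 SE, adjusted p 7.31e-07 by limma), and mixed in MDA-MB-231, with -0.03 (± 0.04 SE, adjusted p 0.761 by limma), a difference of -0.30 (± 0.05 SE, adjusted p 0.0003 by limma). NPC1, which exports cholesterol from lysosomes, was the single transcript called higher in MDA-MB-231. NPC1 counts in MDA-MB-231 were 5118, 5130.4, 5047 and 5063 in low glucose and 5637, 5586, 5422 and 5292 in high glucose. NPC1 counts in MDA-MB-468 were 1503, 1370.3, 1395 and 1465 in low glucose and 1445, 1545, 1404 and 1427 in high glucose. The MDA-MB-231 groups did not overlap, with a log2 fold change of 0.11 (± 0.03 SE, adjusted p 0.019 by limma) that was lost without high-glucose replicate 1 or 2 (adjusted p 0.0651 to 0.0753, limma), and the MDA-MB-468 value was 0.02 (± 0.04 SE, adjusted p 0.698 by limma). ABCA1, the LXR-driven exporter of cholesterol to apolipoproteins, rose in MDA-MB-468 from a low level. ABCA1 counts in MDA-MB-468 were 130.5, 124, 129.5 and 140.1 in low glucose and 163, 177, 164 and 167 in high glucose. ABCA1 counts in MDA-MB-231 were 461, 467, 572 and 533 in low glucose and 489, 492, 467 and 471 in high glucose. ABCA1 groups were apart in MDA-MB-468, with 0.35 (± 0.08 SE, adjusted p 0.00228 by limma), and overlapped in MDA-MB-231, with -0.08 (± 0.07 SE, adjusted p 0.507 by limma). ABCG1, an exporter to high-density lipoprotein, had the largest fold change in MDA-MB-231 but rested on few reads: its means were 9.42 ± 2.25 normalized reads in low glucose and 14.9 ± 3.40 in high glucose (SD, n = 4), and the log2 fold change of 0.61 (± 0.32 SE, adjusted p 0.237 by limma) was not called.

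**Figure D3:**
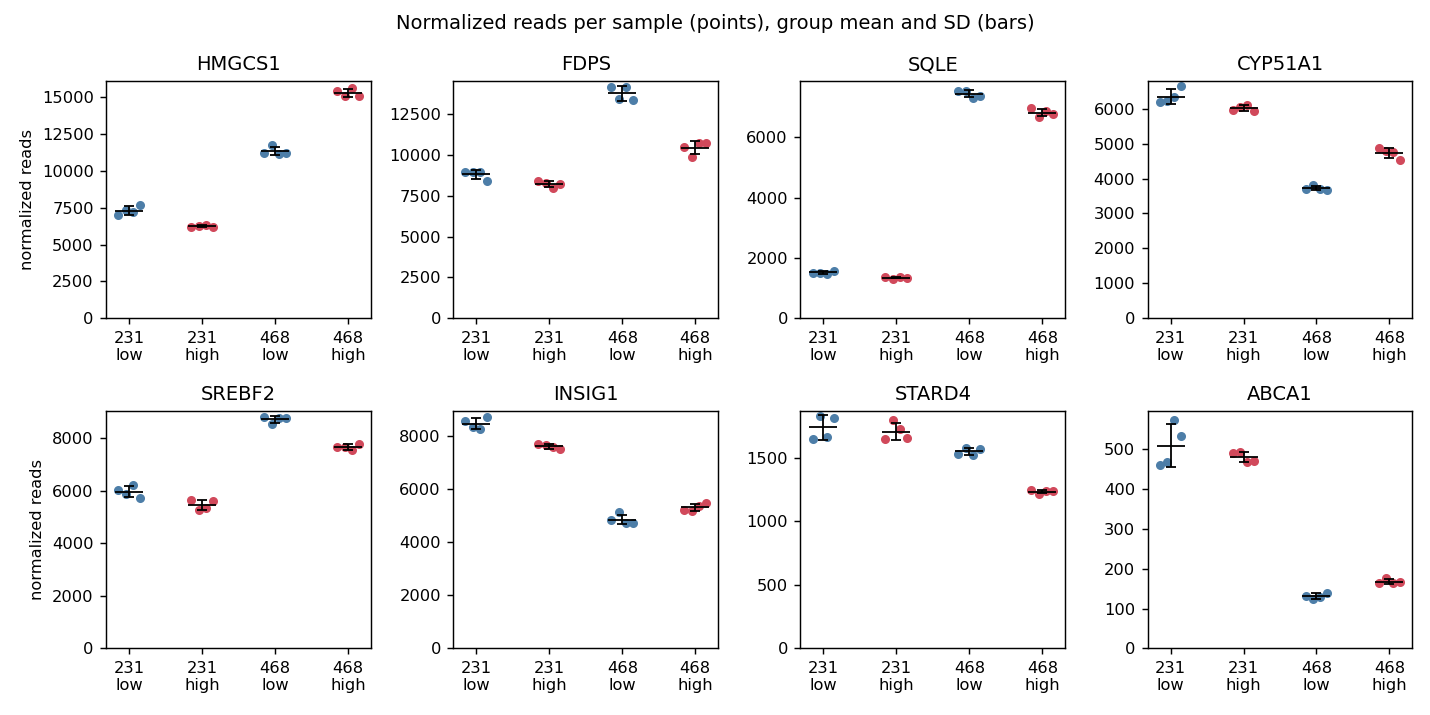
Normalized reads of 8 transcripts in each sample (points; blue low glucose, red high glucose), with the group mean and SD of 4 replicates, with tick labels that shorten the line names to their last digits. Axes start at 0. HMGCS1 and INSIG1 move in opposite directions in the 2 lines, SQLE and SREBF2 fall in both, and STARD4, CYP51A1 and ABCA1 are called in MDA-MB-468 alone.

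Set side by side, 6 transcripts were lower in MDA-MB-231 and higher in MDA-MB-468 (ACAT2, HMGCS1, FDFT1, NSDHL, DHCR7 and INSIG1), and 3 were lower in both (FDPS, SQLE and SREBF2). None was higher in both. A further 8 were higher and 2 lower in MDA-MB-468 without a call in MDA-MB-231, NPC1 was called in MDA-MB-231 only by the separate tests, and 7 were called in neither line. Of the 6, ACAT2, HMGCS1 and INSIG1 kept both calls under all 20 alternatives run, while the MDA-MB-231 call was lost in 12 of 20 for FDFT1 and in 8 for NSDHL, and the MDA-MB-468 call of DHCR7 was lost in 13 and changed sign in 1. Among all 13573 genes tested in both lines, 3.0% were lower in MDA-MB-231 and higher in MDA-MB-468, 3.02% lower in both, 1.86% higher in both and 43.4% called in neither, beside 22.2%, 11.1%, 0% and 25.9% of the 27. The log2 fold changes had opposite signs in the 2 lines for 17 of the 27 (63.0%), and for 49.1% of the 13573 genes. Across the 27 transcripts, which share the same libraries, Pearson's r between the lines was -0.252 and Spearman's rho -0.145, beside -0.01 and 0.013 over the 13573 genes, all given as a description. ABCG1, not called and with few reads, lay at 0.61 in MDA-MB-231, where the others ran from -0.22 (HMGCS1) to 0.11 (NPC1). Pearson's r leans on that transcript, and no value without it was computed. The difference in response between the lines was tested over all 16 samples: the response was more positive in MDA-MB-468 for 14 of the 27 and more negative for 2, FDPS and STARD4 (limma adjusted p under 0.05). Among all 17115 genes in that test, 17.0% were called in the positive and 13.9% in the negative direction. With quantile rescaling the counts were 12 and 4. NPC1 was not among the 16, with a difference of -0.09 (± 0.05 SE, adjusted p 0.196 by limma).

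**Figure D4:**
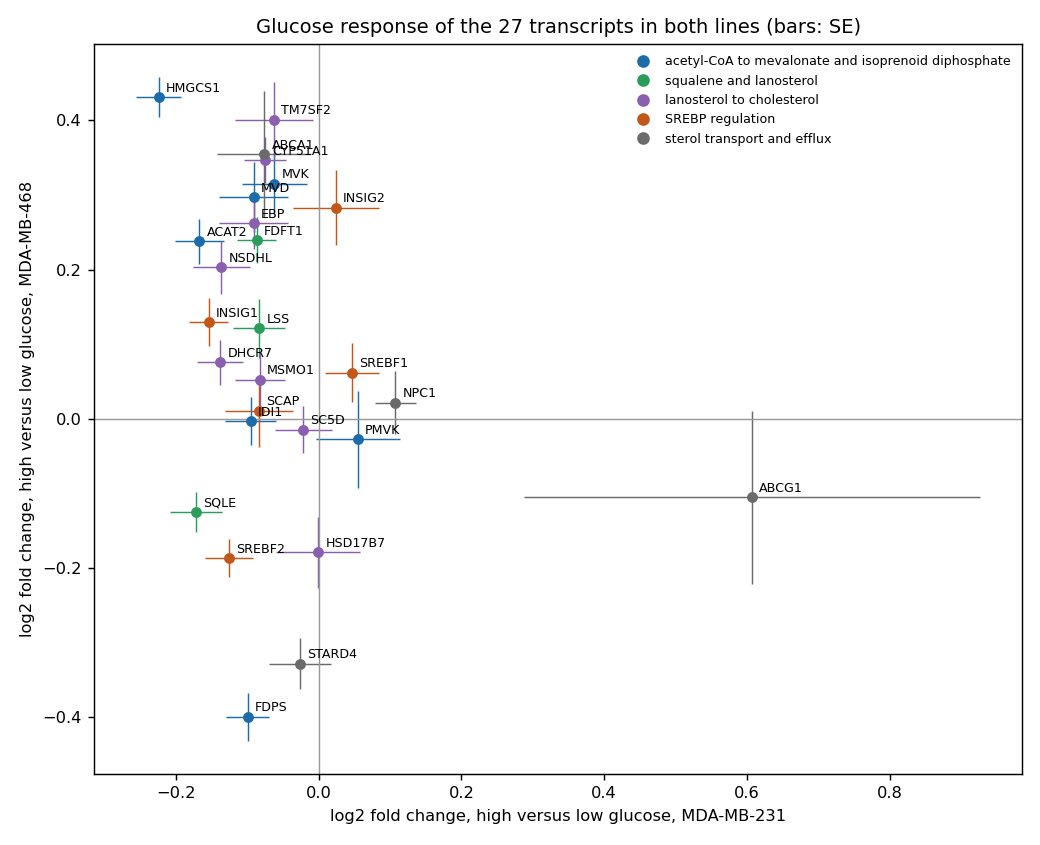
Log2 fold change of high versus low glucose in MDA-MB-231 (x axis) and MDA-MB-468 (y axis) for the 27 transcripts, coloured by role, with SE bars. Points in the upper left quadrant, HMGCS1 at the far end, had opposite signs in the 2 lines. FDPS, STARD4, SREBF2 and SQLE lie below zero on both axes, and ABCG1 has the widest bars.

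The lines differed far more from each other than the glucose groups did. In low glucose 17 of the 27 transcripts were higher and 8 lower in MDA-MB-468 than in MDA-MB-231 (limma adjusted p under 0.05), where 45.0% and 40.4% of all 17115 genes were called, and in high glucose 18 were higher and 8 lower, beside 44.6% and 40.6%. As most genes differed between the lines, the sizes say more than the counts. SQLE had 1517 ± 43.6 normalized reads in low glucose in MDA-MB-231, beside 7433 ± 116 in MDA-MB-468 (SD, n = 4), a log2 difference, MDA-MB-468 minus MDA-MB-231, of 2.29 (± 0.02 SE, adjusted p 2.34e-21 by limma). MVD had 2094 ± 173 and 7862 ± 542, a log2 difference of 1.91 (± 0.06 SE, adjusted p 2.09e-15 by limma). These enzymes and NSDHL (1.37), SC5D (1.18) and DHCR7 (0.96) stood higher in MDA-MB-468. The largest of the 27 differences was that of ABCG1, which had 9.42 ± 2.25 normalized reads in MDA-MB-231, beside 118 ± 10.3 in MDA-MB-468, a log2 difference of 3.54 (± 0.19 SE, adjusted p 6.6e-12 by limma) in low glucose and 2.82 in high glucose, with few reads in MDA-MB-231. Lower in MDA-MB-468 were NPC1, with 5089.5 ± 40.7 normalized reads in MDA-MB-231, 1433 ± 61.5 in the other line and a log2 difference of -1.83 (± 0.03 SE, adjusted p 2.49e-18 by limma), and ABCA1, with 508 ± 53.7 and 131 ± 6.74 and -1.94 (± 0.07 SE, adjusted p 1.38e-14 by limma). MSMO1 (-0.79), INSIG1 (-0.80), CYP51A1 (-0.77) and MVK (-0.76) were lower in MDA-MB-468 as well. Of the 18 biosynthetic enzymes, 13 (72.2%) were higher and 3 (16.7%) lower in MDA-MB-468 in low glucose. In high glucose the counts were 14 and 3. Most enzymes of the route thus stood higher in MDA-MB-468, and a few stood lower. The high-glucose differences of SQLE, MVD, NPC1 and ABCA1 were 2.34, 2.30, -1.91 and -1.51. With 1 line of each kind, differences of the tumour subtype and of the individual line cannot be told apart. The methods of the study also name DMEM for growing MDA-MB-231 and RPMI for MDA-MB-468. Their RNA-seq passage names no base medium. An effect of the medium, also on the glucose response, therefore cannot be told apart from that of the line.

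Other genes around the pathway were counted from lists of their roles. Over all genes tested, as given above, 5.71% were called higher and 9.37% lower in MDA-MB-231, and 24.9% and 22.7% in MDA-MB-468. Of 12 further genes of SREBP processing and sterol-regulated turnover, all tested, 2 rose and 2 fell in MDA-MB-231 and 6 rose and 3 fell in MDA-MB-468 (50.0% and 25.0%), with median log2 fold changes of 0.02 and 0.05. ERLIN2, an endoplasmic reticulum membrane protein, had the largest fall in MDA-MB-468 at -0.18 (± 0.04 SE, adjusted p 0.00128 by limma). In MDA-MB-231 the ligase SYVN1 rose most at 0.20 (± 0.05 SE, adjusted p 0.0137 by limma) and PGRMC1 fell most at -0.21 (± 0.04 SE, adjusted p 0.000708 by limma). Of the sterol handling and LXR genes, 5 of 26 tested rose and 2 fell in MDA-MB-231, and 8 of 25 rose and 6 fell in MDA-MB-468 (32.0% and 24.0%, near the shares of all genes). VLDLR, a lipoprotein receptor, rose most in MDA-MB-231 at 0.31 (± 0.05 SE, adjusted p 0.000161 by limma), and TMEM97, a sterol-responsive membrane protein, fell most at -0.40 (± 0.04 SE, adjusted p 7.04e-07 by limma). NCEH1, a cholesteryl ester hydrolase, rose most in MDA-MB-468 at 0.51 (± 0.06 SE, adjusted p 7.07e-06 by limma), and GRAMD1A, a sterol transfer protein, fell most at -0.29 (± 0.05 SE, adjusted p 0.000137 by limma). In the isoprenoid branch 2 of 16 genes rose and 1 fell in MDA-MB-231, led by FNTA at 0.19 (± 0.05 SE, adjusted p 0.0117 by limma) and ICMT at -0.21 (± 0.03 SE, adjusted p 0.000378 by limma), and 5 rose and 4 fell in MDA-MB-468 (31.2% and 25.0%), also near the shares of all genes there. FNTB, a farnesyltransferase subunit that uses the product of FDPS, had the largest rise of the branch in MDA-MB-468 at 0.74 (± 0.10 SE, adjusted p 1.38e-05 by limma), and PGGT1B the largest fall at -0.30 (± 0.07 SE, adjusted p 0.00129 by limma).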

How the data were processed

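RNA was sequenced from the 16 samples, with a HiSeq (labels) or NextSeq (series design) machine named. The authors deposited 1 table of normalized read counts, a signal scaled for library size. The submitters' processing notes name build hg38 and edgeR, whereas the study's methods describe hg19, with TopHat, DESeq2 and edgeR; the counter and its use of strand are not given in the sources used here. Whole reads were recovered by dividing each column by the value of 1 read (100.0% of values within 0.01 of a whole read). Symbols were matched for 16633 of 18332 IDs. Genes reaching 0.5 CPM in 2 samples were tested by limma 3.58.1 (R 4.3.3, trended) on log2(value + 1), two-sided, with Benjamini-Hochberg adjustment over all tested genes; all 27 transcripts passed the filter. Each line was fitted alone, and the differences between lines over all 16 samples. A fold change is on the log2(value + 1) scale. The fits were run on simulated data with planted changes larger than the called glucose responses of the 27 transcripts. That simulation does not cover changes as small as those called here. Alternatives were other pseudocounts, filters and scalings, edgeR 4.0.16 and DESeq2 1.42.0 on recovered reads, a replicate block, a transcript length correction, a stricter threshold and leaving out each replicate.

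The members and lists were chosen with earlier results of these data known. All 27 are named, those called in either line with every sample's value, and of each other list the largest called rise and fall per line, except 1 that is not reported here. The labels do not say that replicates are separate cultures, so p-values measure only the spread between these samples, which may be technical. Gene positions are GRCh37 (GENCODE) and promoters GRCh38.p14 (RefSeq), without conversion. By those positions 13 of the 27 genes overlap another gene of the table, 12 of them on the opposite strand, and their counts are uncertain to that extent.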

Additional observations from a re-analysis of the deposited data

Results flagged for a closer look

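In 5 of the 108 groups of 4 replicates examined, 1 sample stood apart by Dixon's ratio of the gap to the range, above its 95% critical value. Chance alone gives about 1 in 20, or 5.4 of 108. The ratio was 0.938 for ACAT2 in MDA-MB-231 high glucose (replicate 2 highest), 0.875 for HMGCS1 in MDA-MB-468 low glucose (replicate 2 highest), 0.907 for FDPS in MDA-MB-231 low glucose (replicate 4 lowest), 0.86 for DHCR7 in MDA-MB-468 high glucose (replicate 4 highest) and 0.922 for SREBF2 in MDA-MB-468 low glucose (replicate 2 lowest).

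The glucose response differed between the lines for 16 of the 27 transcripts (limma adjusted p under 0.05). Of the 27, 51.9% were called in the positive and 7.41% in the negative direction, beside 17.0% and 13.9% of all 17115 genes tested. The calls of DHCR7, INSIG2 and LSS were lost under some alternatives. On the log2 scale the response in MDA-MB-468 minus that in MDA-MB-231 was 0.41 for ACAT2, 0.66 for HMGCS1, 0.38 for MVK, 0.39 for MVD, -0.30 for FDPS, 0.33 for FDFT1, 0.20 for LSS, 0.42 for CYP51A1, 0.46 for TM7SF2, 0.34 for NSDHL, 0.35 for EBP, 0.21 for DHCR7, 0.28 for INSIG1, 0.26 for INSIG2, -0.30 for STARD4 and 0.43 for ABCA1.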

How the results depend on the processing

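Each of the other settings was run. In MDA-MB-231 the 9 transcripts called lower became 5 under quantile rescaling and 5 at a threshold of 0.01, and 5 to 12 when each replicate was left out. The counts of 5 came without low-glucose replicate 3 and without high-glucose replicate 3. The 1 called higher became 0 at 0.01, and 0 to 1 when each replicate was left out. In MDA-MB-468 DHCR7 turned from 0.08 to -0.0341 under quantile rescaling. The difference between lines had 4 in place of 2 lower calls under quantile rescaling. The causes were not tested. Of the calls, 5 of 10 in MDA-MB-231, 17 of 19 in the other line and 13 of 16 of the difference held under every alternative.

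With the replicate block the counts higher and lower were 1 and 6 in MDA-MB-231, 13 and 5 in the other line and 14 and 2 for the difference, and 16 and 8 for the lines in low glucose and 18 and 8 in high glucose. Deviations of same-numbered samples correlated at -0.04 to -0.0051 in MDA-MB-231, where no low-glucose sample correlated best with its own number. In MDA-MB-468 they correlated at 0.017 to 0.032, and 3 of 4 low-glucose samples correlated best with their own number. These small values do not settle whether samples were paired in MDA-MB-468. On recovered reads edgeR called 910 genes higher and 1334 lower in MDA-MB-231, 3846 genes higher and 3638 lower in MDA-MB-468 over the whole table, and DESeq2 813 and 1272, then 3420 and 3212. Depth limited ABCG1 most, at the lowest counts of the 27.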

Other observations

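Fatty acid synthesis genes, which SREBP1 is best known to drive, were counted for comparison. In MDA-MB-231 2 of 11 tested rose and 3 fell in high glucose, and in MDA-MB-468 7 of 12 rose and 1 fell, with median log2 fold changes of -0.04 and 0.16. These are 18.2% and 27.3% of the list in MDA-MB-231, where 5.71% and 9.37% of all genes were called, and 58.3% and 8.33% in MDA-MB-468, beside 24.9% and 22.7%. In MDA-MB-468 THRSP, a regulator of lipogenesis, had the largest rise at 0.99 (± 0.19 SE, adjusted p 0.000464 by limma), and ELOVL5, an elongase of polyunsaturated fatty acids, the only fall at -0.14 (± 0.03 SE, adjusted p 0.00129 by limma). In MDA-MB-231 ME1, malic enzyme, rose most at 0.23 (± 0.04 SE, adjusted p 0.00163 by limma), and ELOVL5 fell most at -0.18 (± 0.03 SE, adjusted p 0.00124 by limma). The difference between this list and the sterol genes was not tested.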
